A study of Mus musculus with 4 samples.

Results

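MHC class II high macrophages of subcutaneous LLC tumors were chosen by counts of 15 genes in single cells, and 680 of 55058 cell barcodes met the rule. A member had at least 3 UMIs (unique molecular identifiers, each standing for 1 captured mRNA molecule) of the complement genes C1qa, C1qb and C1qc combined, which mark macrophages, and at least 1% of its UMIs on the MHC class II genes H2-Aa, H2-Ab1 and H2-Eb1. Markers of neighboring populations were limited, among them at most 1 UMI of Folr2, Lyve1, Cd163 and Fcna (tissue-type macrophages), none of Flt3, Cd209a and Ccr7 (dendritic cells) and at most 1 UMI of Rhox5 (LLC cells). The 15 genes of the rule chose the members, so their own values are given as a description and were left out of every test. Only barcodes with 200 or more genes detected and no more than 20% of UMIs on mitochondrial genes were used.

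LLC (Lewis lung carcinoma) is a mouse lung cancer line, here grown under the skin of female C57BL/6N mice aged 6 to 8 weeks to an average volume of 100 mm3. The radiotherapy group (RT) comprised 3 single-tumor libraries (RT1, RT2 and RT3), given 24 Gy in 3 fractions of 8 Gy on days 7 to 9 and collected 72 h later. The control group (NT, mock-treated) comprised 1 library made of 3 tumors pooled. All animals carried the same tumor line, with no other allele or drug. The count tables held 69667759 UMIs in 10141 barcodes for NT, 78585759 in 15346 for RT1, 108699844 in 14994 for RT2 and 85660188 in 15324 for RT3. The table of RT2 stood apart from the others, since it listed 18605 genes in place of 32285 and held no barcode above 11.95% mitochondrial UMIs. Counts of genes in each comparison are therefore also given without RT2, as are the counts of gene lists described below where leaving it out moves them by more than 1.5 times. Of the members, 33 (4.85%) carried a barcode that was also kept in another library, against 4.78% of all kept barcodes.

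MHC class II molecules present peptides from endocytosed proteins to CD4+ T cells. They are made by dendritic cells and B cells and, under interferon gamma, by macrophages, where the coactivator CIITA switches on the class II genes together with Cd74, the invariant chain that guides the molecules, and the H2-DM genes that exchange their peptides. In tumors, macrophages with high class II are usually set against macrophages with tissue-type or scavenger programs.

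The members numbered 240 in NT, 108 in RT1, 217 in RT2 and 115 in RT3, with a median of 2750 UMIs per member in NT, 2071 in RT1, 3012 in RT2 and 1890 in RT3. As a share of all kept barcodes they made up 2.41% in NT (exact Clopper-Pearson 95% interval 2.11 to 2.73), 0.719% in RT1, 1.45% in RT2 and 0.764% in RT3, that is 0.977 ± 0.408% in RT (SD, n = 3). As a share of all C1q macrophages (at least 3 C1q UMIs, without the dendritic and LLC markers) they made up 33.7% of 712 in NT (30.2 to 37.3). The same share was 3.89% of 2774 in RT1 (3.20 to 4.68), 7.33% of 2961 in RT2 (6.42 to 8.33) and 7.85% of 1465 in RT3 (6.52 to 9.35). Every RT library lay under NT on both scales, and no intervals of NT and RT overlapped. The share of macrophages was 5.30 times as high in NT as in the RT mean of 6.36 ± 2.15% (SD, n = 3). Because NT is 1 library, no test between NT and RT can be made, and the intervals here and below cover counting error only. Tumors pooled in NT cannot be told apart, so their spread is unknown, and fewer members and more macrophages of other kinds cannot be told apart in a share.

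**Figure D1:**
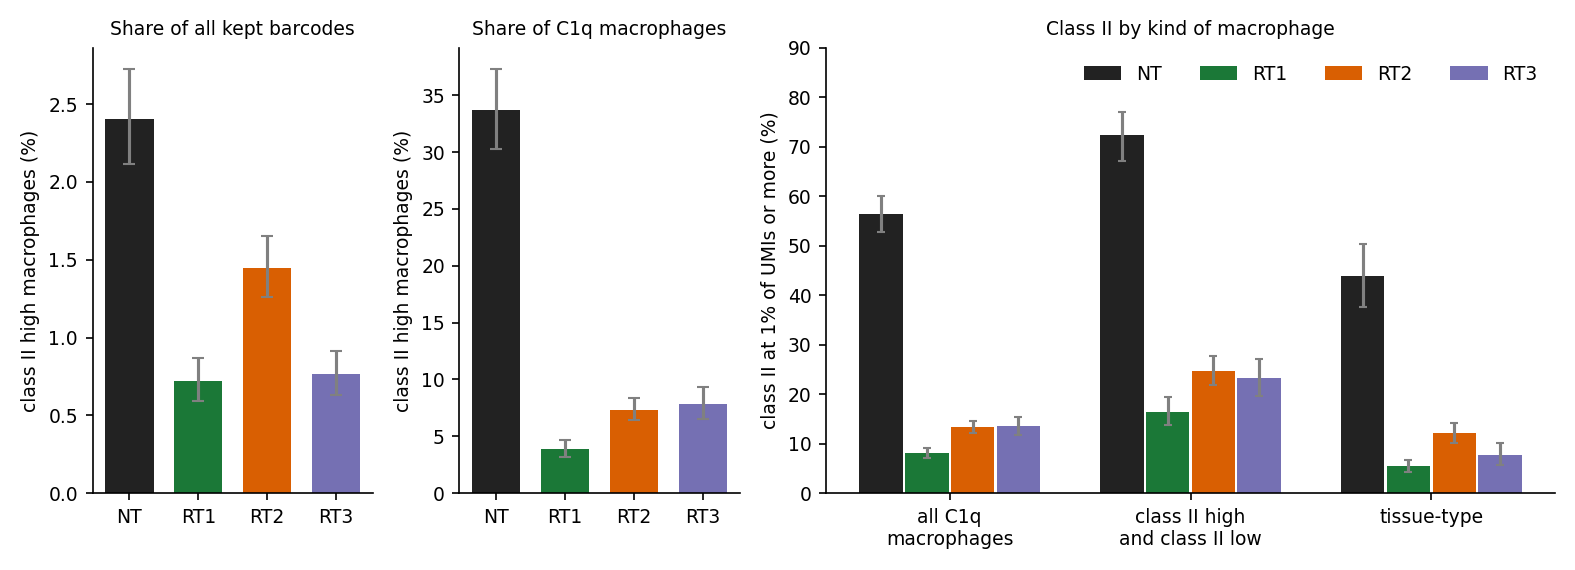
Class II high macrophages as a percentage of kept barcodes (left) and of C1q macrophages (middle), and the percentage with at least 1% of UMIs on H2-Aa, H2-Ab1 and H2-Eb1 among all C1q macrophages, among class II high and low macrophages and among tissue-type macrophages (right), per library with exact 95% binomial intervals. In each panel NT lies above RT1, RT2 and RT3, with 33.7% of macrophages in NT against 3.89 to 7.85% in RT.

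The lower class II in RT was not limited to cells without tissue-type genes. Among all C1q macrophages, class II reached 1% of UMIs in 56.5% of barcodes in NT (52.7 to 60.1), 8.04% in RT1, 13.4% in RT2 and 13.5% in RT3. In tissue-type macrophages (at least 2 UMIs of Folr2, Lyve1, Cd163 and Fcna) the share was 43.9% in NT, 5.41% in RT1, 12.1% in RT2 and 7.69% in RT3. Tissue-type macrophages thus had the same order of NT over every RT library as all C1q macrophages, as a description of values that the rule itself used. Free RNA can also give class II UMIs, and in LLC barcodes without C1q, with at least 3 Rhox5 UMIs, class II reached 1% of UMIs in 0.0827% in NT, 0.0481% in RT1, 0.0755% in RT2 and 0.0277% in RT3. At least 1 class II UMI was found in 19.1% of these LLC barcodes in NT, 9.12% in RT1, 32.1% in RT2 and 10.8% in RT3. Depth differed between libraries. After every barcode was thinned to 2000 UMIs, the rule was met by 40.7% of macrophages in NT, 3.68% in RT1, 8.90% in RT2 and 7.36% in RT3. These barcodes were counted anew on thinned UMIs (205 in NT and 211 in RT2), so that some were not members before thinning. Thinning left out 75 of the 240 members of NT, 53 of 108 in RT1, 65 of 217 in RT2 and 61 of 115 in RT3 as too shallow.

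The 1% threshold did not fall in a gap of the distribution. There were 72 members with class II at 1 to 1.25% of UMIs and 70 otherwise like barcodes at 0.75 to 1%. Of the members, 240 held 1 to 2% of UMIs on class II, 331 held 2 to 4% and 109 held 4% or more. The median was 2.71% in NT, 2.29% in RT1, 2.23% in RT2 and 2.33% in RT3. H2-Aa stood at 12617 CPM (its UMIs summed over the members of a library, relative to all their UMIs) in NT, 10773 in RT1, 10081 in RT2 and 12207 in RT3, and C1qa at 492, 262, 412 and 406 CPM. The class II level of members thus lay in a narrow range over the 4 libraries, which the threshold itself favors.

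The label was set beside 12 genes of macrophage identity that the rule did not use. All 12 were higher in members than in dendritic barcodes (at least 2 UMIs of Flt3, Cd209a and Ccr7, at most 2 of C1q and class II at 1% or more, 180 barcodes), with a median log2 difference of 2.47. Over all genes tested, 12.6% were higher in this comparison. Csf1r, the receptor of macrophage colony stimulating factor, stood at 314 CPM in NT, 793 in RT1, 599 in RT2 and 492 in RT3 in members, with a mean of 196 in dendritic barcodes. Adgre1, which encodes the F4/80 antigen, stood at 220 CPM in NT, 276 in RT1, 177 in RT2 and 240 in RT3, with a mean of 26.3 in dendritic barcodes. Both genes were above the dendritic mean in all 4 libraries. The gates already parted these 2 populations by C1q and dendritic genes, so that this direction was favored in advance and is given as a description. By the same tests, none of the 12 was higher in members than in class II low macrophages and 1 was lower. Against tissue-type macrophages 1 was higher and 6 were lower. Zbtb46, a transcription factor of classical dendritic cells, had no UMI in the members of any library and a mean of 110 CPM in dendritic barcodes. It passed the filter on low counts only through other populations, so that its values are given as a description. Some dendritic markers outside the gate went the other way against macrophages. Of 8 in the fit, Mgl2 and Cd1d1 were higher in members than in class II low macrophages by the edgeR tests described below (2.59% of all genes were higher). Against tissue-type macrophages Mgl2, Cd1d1, Dpp4 and Clec9a were called higher and Clec10a lower (11.1% of all genes were higher). With only the 8 sums of the 2 populations compared, 4 of these genes were tested, with 2 higher in each comparison. The others passed the filter only through further populations, so that the calls of Dpp4 and Clec9a are not read. Without RT2 1 gene was higher than in class II low and 2 than in tissue-type macrophages. Cd1d1, which presents lipids to NKT cells, stood at 19.1 to 35.4 CPM in members, while Dpp4 and Clec9a rested on 5 UMIs or fewer in any library.

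Members were first compared with MHC class II low macrophages, the 1684 barcodes (92 in NT, 549 in RT1, 663 in RT2, 380 in RT3) that met the same rule but held under 1% of UMIs on class II. They were shallower than members in every library, with a median of 1742 UMIs in NT, 1299 in RT1, 1839 in RT2 and 1475 in RT3. Thinning to 2000 UMIs left out 53 of them in NT, 410 in RT1, 354 in RT2 and 263 in RT3. The part of depth in the comparison was not tested beyond thinning. UMIs were summed per library and population, and edgeR's quasi-likelihood test with the library as a block was run over 6949 genes. Of these, 180 genes (2.59%) were higher and 141 genes (2.03%) were lower in members at a Benjamini-Hochberg adjusted p under 0.05. Without RT2 the counts were 88 higher and 68 lower, without RT1 93 and 69, and without RT3 114 and 87. The median log2 difference over all genes was -0.01. Each library entered once in each population, so that the p-values measure whether the difference was shared by 4 libraries, 3 of them from irradiated tumors.

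Genes of the class II pathway were higher in members. Ciita stood at 64.2 CPM in NT, 56.7 in RT1, 94.4 in RT2 and 32.5 in RT3 in members, against 15.1, 2.27, 9.12 and 4.62 CPM in class II low macrophages. All members' sums lay above all class II low sums, and the log2 difference was 3.33 ± 0.36 (SE, edgeR adjusted p = 4.02e-07). Cd74 stood at 2187 CPM in NT, 1346 in RT1, 2043 in RT2 and 1431 in RT3 in members, against 559, 143, 415 and 225 CPM. The sums again did not overlap, with a log2 difference of 2.62 ± 0.26 (edgeR adjusted p = 1.04e-07). Of 10 measured genes of the class II pathway outside the rule, 7 were higher and 1 was lower, with a median log2 difference of 1.56. The other higher genes were H2-DMb1 (2.59 ± 0.36), H2-DMb2 (1.80 ± 0.39) and H2-DMa (1.31 ± 0.21), which form the peptide exchanger, Ifi30 (0.73 ± 0.11), a thiol reductase of the endosome, and Ctss (0.61 ± 0.12), the cathepsin that trims the invariant chain. Lgmn, an endosomal protease, was the 1 that was lower (-0.62 ± 0.14), a call that was lost without RT1 and without the library block. Reads of H2-DMb1 and H2-DMb2, near-identical neighbors, may have been split between them, and H2-DMb2 was no longer called without RT1 (1.36) or with at least 10 C1q UMIs (1.45). H2-Ob and H2-Eb2 had at most 1.37 CPM in the members of any library, against a mean of 97.5 and 82.2 CPM in dendritic barcodes. With only the 8 sums of the 2 populations compared, 8 genes of this list were tested, and 7 were higher and 1 lower.

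The promoters of class II genes are known for a conserved X box and Y box, bound by the RFX and NF-Y complexes on which CIITA assembles. To show these letters in class II genes, RefSeq promoters (GRCm38.p6, 250 bases before to 50 bases after the start) were searched on both strands for TGATTGG, a core of the Y box, and AACNNATG, a core of the X box. The letters were chosen after seeing these sequences. TGATTGG was in the promoters of 9.00% of 27025 genes and AACNNATG in 10.2%, while both, with 20 to 40 bases from the first letter of one to that of the other, were in 14 genes (0.0518%). Of the 7 pathway genes higher in members, Cd74 and Ciita were not matched to the table, H2-DMa and Ifi30 held neither set of letters, Ctss held AACNNATG alone, and only the H2-DMb genes held the pair. Of 11 class II genes with a promoter in the table, 5 held the pair, of which H2-DMb1 and H2-DMb2 were higher in members, H2-Eb1 is a gene of the rule, and H2-Eb2 and H2-Ob were nearly silent in members. The stretches are given 5′ to 3′ on the gene's strand, all on chromosome 17, with the 2 sets of letters in capitals, together with H2-Aa and H2-Oa, which held TGATTGG alone.
H2-Eb1 (chr17:34305766-34305824, plus strand): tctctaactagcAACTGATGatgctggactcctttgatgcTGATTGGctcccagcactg
H2-DMb1 (chr17:34153087-34153146, plus strand): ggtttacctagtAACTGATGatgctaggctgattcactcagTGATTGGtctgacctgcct
H2-DMb2 (chr17:34145116-34145175, plus strand): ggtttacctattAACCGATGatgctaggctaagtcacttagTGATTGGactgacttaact
H2-Eb2 (chr17:34325533-34325591, plus strand): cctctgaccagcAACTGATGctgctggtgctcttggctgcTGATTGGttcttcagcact
H2-Ob (chr17:34238808-34238864, plus strand): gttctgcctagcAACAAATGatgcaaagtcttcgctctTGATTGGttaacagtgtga
H2-Aa (chr17:34287855-34287913, minus strand): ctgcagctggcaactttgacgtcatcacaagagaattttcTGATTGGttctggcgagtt
H2-Oa (chr17:34092294-34092352, plus strand): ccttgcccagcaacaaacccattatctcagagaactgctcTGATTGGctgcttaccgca
In the genes with the pair, TGATTGG began 26 to 29 bases after the first letter of AACNNATG and 59 to 102 bases before the start. TGATTGG alone did not set apart the genes that differed, as it was in 17 of 139 higher genes, 11 of 110 lower genes and 646 of 5580 tested genes with a promoter (11.6%). These matches describe letters in a window and not sites that were bound in these cells.

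Further genes among the 12 highest in members over class II low macrophages lay outside the class II pathway. Itgax, the CD11c integrin chain that dendritic cells and many macrophages carry, stood at 197 CPM in NT, 400 in RT1, 250 in RT2 and 268 in RT3, against 111, 42.0, 43.6 and 29.3 CPM in class II low macrophages. The sums did not overlap, and the log2 difference was 2.51 ± 0.34 (edgeR adjusted p = 1.01e-05). Mgl2, a C-type lectin of macrophages and dermal dendritic cells, stood at 723 CPM in NT, 1494 in RT1, 599 in RT2 and 447 in RT3, against 413, 311, 120 and 89.4 CPM. Its log2 difference was 2.04 ± 0.25 (edgeR adjusted p = 1.61e-06), with RT1 highest among members. Klrb1b, an inhibitory lectin receptor best known from NK cells, differed by 2.59 ± 0.35 (log2, 56.9 to 111 CPM against 3.41 to 16.3), and Pdcd1lg2, which encodes the PD-1 ligand PD-L2, was higher as well (45.1 to 150 CPM against 5.04 to 25.4, edgeR adjusted p = 5.21e-08), with a log2 ratio from 2.04 in RT2 to 2.78 in RT1. Ear2, a secreted ribonuclease, differed by 2.36 ± 0.32, from 42.4 CPM in NT to 237 in RT1 among members. Mmp12, the macrophage elastase, was higher in members in each library (1.85 ± 0.30), but its sums overlapped, since class II low macrophages of RT1 held 303 CPM and members of NT held 223 CPM.

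Of 17 measured genes of the interferon gamma response, 3 were higher (Cxcl9, Gbp2 and Iigp1) and none was lower, with a median of 0.42. Cxcl9, a chemokine that draws T cells through CXCR3, stood at 1937 CPM in NT, 811 in RT1, 2656 in RT2 and 1699 in RT3, against 327, 300.0, 695 and 655 CPM. All members' sums were above those of class II low macrophages, with a log2 difference of 1.81 ± 0.22 (edgeR adjusted p = 1.4e-06). Gbp2b, a guanylate-binding protein outside that list, differed by 3.26 ± 0.34, with 21.2 to 120 CPM against 1.54 to 15.1 (reads of Gbp genes may be split between near-identical copies). Of 18 measured genes of the type I interferon response, none was called in either direction by edgeR, and their median was -0.17. For MHC class I and its peptide loading, 3 of 21 genes were higher (H2-T23, Psmb9 and Psme1, 0.45 to 0.68), and of 14 genes of costimulation and checkpoints 2 were higher (Cd86, 0.63 ± 0.16, and Pdcd1lg2). None of the class I genes was called without RT1, without RT2, without the library block, with at least 10 C1q UMIs or without barcodes that carried a marker of another cell or were among the deepest 5%. Without RT1 or without the library block, 1 gene of the gamma list and 1 of the costimulation list were higher, and without RT2 the counts were 2 and 1. When barcodes were thinned to 2000 UMIs, 5 genes of the gamma list and 5 of the costimulation list were higher, and the gamma list had 5 with no filter on low counts and 6 with only the 8 sums compared.

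**Figure D2:**
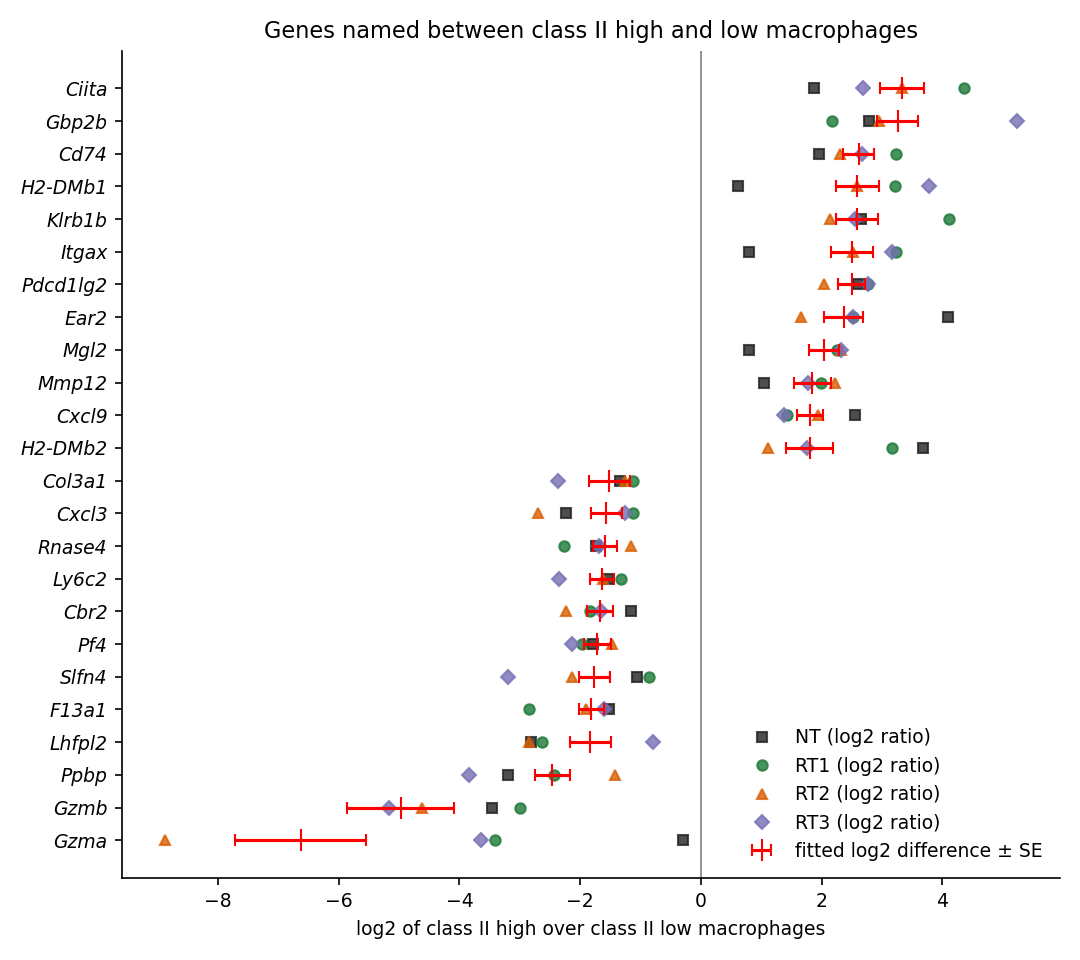
Log2 ratio of class II high over class II low macrophages for the 24 genes named by the rule of size, per library (symbols) and as fitted by edgeR (red bar, ± SE). The 12 genes at the top lie above 0 and the others below 0. In NT, however, Gzma has no UMI in class II low macrophages and 1.37 CPM in members. Its point left of 0 thus comes only from the 0.5 UMI added to each sum. The calls of Gzma and Gzmb are not read, since both rested on few UMIs in members.

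Genes lower in members included most of the tissue and scavenger list, some monocyte genes and some chemokines. Of 13 measured tissue and scavenger genes, 8 were lower and none was higher, with a median of -0.83. Without RT1 5 were lower, and without the library block 3. With only the 8 sums of the 2 populations compared, 10 genes of this list were tested, and 1 was higher and 6 were lower. The others passed the filter on low counts only through further populations. F13a1, the A chain of clotting factor XIII, stood at 87.5 CPM in NT, 74.4 in RT1, 54.7 in RT2 and 150 in RT3, against 252, 549, 206 and 465 CPM. Pf4, a CXC chemokine of platelets and macrophages, stood at 168 CPM in NT, 237 in RT1, 177 in RT2 and 220 in RT3, against 579, 935, 489 and 977 CPM. Neither gene overlapped between the populations, with log2 differences of -1.82 ± 0.20 and -1.72 ± 0.22 (edgeR adjusted p = 6.32e-07 and 5.11e-06). Mrc1, the mannose receptor, fell by 0.83 ± 0.14 on the log2 scale and Stab1, a scavenger receptor, fell by 1.40 ± 0.21. Of 9 monocyte genes 3 were lower (Ly6c2, Chil3 and Ms4a4c, none of them without the library block), and Ly6c2, the Ly6C antigen of inflammatory monocytes, stood at 38.3 CPM in NT, 237 in RT1, 335 in RT2 and 159 in RT3, against 111, 598, 1035 and 814 CPM. Ly6c2 was lower in members of every library by a log2 difference of -1.64 ± 0.20 (edgeR adjusted p = 1.95e-06), although the sums of different libraries overlapped.

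Ccl2, Ccl7 and Ccl12, ligands of the receptor CCR2, which calls monocytes into tissue, were lower. Ccl2 stood at 2985 CPM in NT, 3467 in RT1, 2567 in RT2 and 2012 in RT3 in members, against 5697, 7371, 4803 and 5992 CPM in class II low macrophages. The sums did not overlap, and the log2 differences were -1.05 ± 0.12 for Ccl2, -1.15 ± 0.20 for Ccl7 and -1.11 ± 0.18 for Ccl12 (edgeR adjusted p = 1.22e-06, 0.00037 and 0.000106). Of the other 8 CC chemokines in the fit, Ccl5 (1.52 ± 0.21), which attracts T cells, was higher, and Ccl17, a ligand of CCR4, was also called. With only the 8 sums of the 2 populations compared, 9 CC chemokines were tested, and 1 was higher and 4 were lower. Without RT3 1 CC chemokine was higher, and without the library block 1 was lower and none was higher. Ccl17 rested on few UMIs, with 1.37 CPM in NT, 35.4 in RT1, 2.74 in RT2 and 130 in RT3, and its call is not read. Of the CXC chemokines Cxcl16 was higher (0.93 ± 0.13), and Cxcl1 (-0.76) and Cxcl3 (-1.57 ± 0.25), both ligands of the neutrophil receptor CXCR2, were lower. No CXC chemokine was called without the library block. None of 12 genes of the inflammatory list, Il1b and Tnf among them, was called by edgeR, with a median of -0.01, although 4 were higher when barcodes were thinned to 2000 UMIs, 3 with no filter on low counts or with only the 8 sums compared, and 1 with class II at 2%, without NT or without RT1.

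Among 17 transcription factors of macrophages, Maf, a factor of mature tissue macrophages, was lower, and Runx3, Rel and Batf3 were higher. Maf alone was called without RT2, without the library block, with at least 10 C1q UMIs and without marked and deepest barcodes, and 1 factor was higher without RT1 or without RT3. Maf stood at 462 CPM in NT, 276 in RT1, 386 in RT2 and 293 in RT3, against 710, 914, 780 and 791 CPM, without overlap (-1.05 ± 0.15, edgeR adjusted p = 2e-05). Runx3 differed by 0.83 ± 0.20 (edgeR adjusted p = 0.0117). Axl, a receptor for dying cells, was the 1 of 9 genes of that list to differ (1.61 ± 0.21). Of 12 lipid-associated genes, Lpl, lipoprotein lipase, was higher (1.40 ± 0.26), and Spp1, which encodes osteopontin (-1.33 ± 0.17), Gpnmb and Plin2 were lower. Of 8 cathepsins, Ctsh was higher and Ctsd, Ctsk and Ctsl were lower. Ctsk averaged 3.79 CPM in members with class II at 1 to 2% of UMIs and 1.38 CPM at 2% or more, and its call is not read. With only the 8 sums of the 2 populations compared, 7 cathepsins were tested, and 1 was higher and 3 were lower. Of 14 genes of cell division 1 was called (Ube2c, -1.26), and of 12 identity genes 1 (Fcgr1, -0.60), and neither list had a call without RT1, without RT2 or without RT3. Without NT 2 identity genes were higher and 2 lower. Without RT1 or without RT2 1 lipid-associated gene was lower in place of 3, and without RT2 no cathepsin was higher. Without the library block no gene of the cathepsin, cell division or identity lists was called, and 1 lipid-associated gene was lower.

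Markers of other cells moved with a part of these differences. Gzma and Gzmb, granzymes of cytotoxic lymphocytes, had the lowest values by log2 difference (-6.63 ± 1.08 and -4.97 ± 0.88), from 0 to 4.06 CPM of Gzma in members against 0, 18.2, 323 and 75.5 CPM in class II low macrophages. In NT Gzma went the other way, at 1.37 CPM in members. Without RT2 both fell under the filter on low counts and were not tested. With only the 8 sums of the 2 populations compared, no T or NK marker was tested, Gzmb among them. Both genes rested on few UMIs in members, and their calls are not read. The 8 T and NK markers summed to 6.83 CPM in NT, 0 in RT1, 8.21 in RT2 and 0 in RT3 in members, against 40.3, 31.8, 241 and 133 CPM, with Gzmb the most abundant and Cd3d, Cd8a and Ncr1 at 0 in members. The 6 fibroblast markers, led by Col3a1, summed to 36.9 CPM in NT, 92.1 in RT1, 75.3 in RT2 and 97.6 in RT3, against 90.7, 162, 355 and 878 CPM. Col3a1 differed by -1.51 ± 0.34 and was no longer called when barcodes were thinned to 2000 UMIs (-0.80). The part of such cells in the difference between the populations was not tested. Without barcodes that carried a marker of another cell or were among the deepest 5%, 97 genes were higher and 95 lower. In the lists 6 of 10 class II pathway genes were then higher, while the gamma list had 1 higher gene in place of 3, costimulation 1 in place of 2, and class I and the transcription factors 0 in place of 3 each. LLC markers were low in both, at 35.4 to 48.8 CPM in members with Epcam and Krt19 at 0. The 5 B cell markers summed to 71.1 CPM in NT and 4.06 to 20.5 in RT, led by Ighm, with Cd79a and Ebf1 at 0. Neutrophil markers, led by Mmp9, summed to 21.9 CPM in NT, 411 in RT1, 88.9 in RT2 and 73.2 in RT3, and endothelial markers, led by Pecam1, to 16.4 to 20.3 CPM.

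Within the members some of these genes followed the class II level, which is given as a description because the level chose the bins. In barcodes with class II at 2% of UMIs or more (178 in NT, 61 in RT1, 129 in RT2 and 72 in RT3), Ciita averaged 73.7 ± 28.5 CPM over the 4 libraries (SD), against 36.8 ± 24.8 CPM at 1 to 2%. Cd74 averaged 2008 ± 454 CPM against 1221 ± 290.0, Itgax 345 ± 110.0 against 153 ± 64.9 and Klrb1b 95.9 ± 30.2 against 35.7 ± 7.25. These 4 genes were higher at the higher class II level in all 4 libraries. F13a1 averaged 62.7 ± 26.1 CPM against 152 ± 72.2 and Spp1 161 ± 45.9 against 307 ± 40.9, and both were lower in all 4 libraries. Of the 12 genes named as higher in members, 9 were higher at the higher level in all 4 libraries, H2-DMb1 and Ear2 in 3 and Cxcl9 in 2 (1861 ± 1066 CPM against 1553 ± 339). Of the 12 named as lower, F13a1, Slfn4, Cbr2 and Ly6c2 were lower in all 4 libraries, while Pf4, Ppbp, Rnase4 and Cxcl3 were higher in 1 library and Lhfpl2 and Col3a1 in 2. Gzma and Gzmb had too few UMIs in members to compare.

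Members were next set beside further populations in the same fit. Against 3227 tissue-type macrophages, 773 genes (11.1%) were higher and 709 genes (10.2%) lower by edgeR. Without RT2 these counts were 453 and 408, and without RT1 472 were higher. Of the class II pathway 5 of 10 genes were higher, among them Ciita (3.01 ± 0.27) and Cd74 (2.20 ± 0.24). Of 13 tissue and scavenger genes, 11 were lower, with a median of -2.31. This list overlaps in kind with what defined the tissue-type cells, and the gates favored this direction. The count is therefore given as a description. Ednrb and Igf1, among the 11, averaged 1.58 and 4.88 CPM in members with class II at 2% of UMIs or more, and their calls are not read. Monocyte genes went the other way, with 8 of 9 higher (Ly6c2, 2.21 ± 0.22, and Thbs1 among them) and a median of 2.12. Cxcl9 differed by 0.45 ± 0.20 and did not pass the test (edgeR adjusted p = 0.119). Of 15 genes of hypoxia and glycolysis 9 were higher and Hmox1 was lower. Of 12 inflammatory genes 6 were higher, Il1b, Nos2 and Ptgs2 among them, and Il10 was lower. Without the library block 4 genes of each of these 2 lists were higher, and no inflammatory gene was lower. The macrophage genes Adgre1, Csf1r, Cd68, Lyz2, Apoe and Ms4a7 were lower in members than in tissue-type macrophages, while Cd14 was higher.

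The 180 dendritic barcodes were gated at the same 1% of UMIs on class II. Their median class II share lay above that of members in every library (3.17 to 4.69% against 2.23 to 2.71%). Against them 876 genes (12.6%) were higher and 555 genes (7.99%) lower in members by edgeR. Without RT2 these counts were 519 and 321. Several genes that stood out against class II low macrophages did not differ in this comparison. The log2 difference was -0.09 ± 0.25 for Cd74 (edgeR adjusted p = 0.854), -0.26 ± 0.34 for Itgax (edgeR adjusted p = 0.661) and 0.02 ± 0.25 for Mgl2 (edgeR adjusted p = 0.969), and with these errors a difference of modest size would not have been detected. Ciita was lower in members (-1.25 ± 0.28), as were H2-DMb2 (-2.88 ± 0.29) and Klrb1b (-1.52 ± 0.28). Dendritic markers outside the gate passed the filter on low counts in part only through the dendritic barcodes, so that their count is not read here. Of the transcription factors Irf8, Irf4, Irf5, Rel and Relb were lower. Maf (4.10 ± 0.33) was higher in members, as were 10 of 13 tissue and scavenger genes, 7 of 8 cathepsins and all 5 measured genes of the Fc gamma receptor list. Ccl2 was higher in members by 2.38 ± 0.15 on the log2 scale. Ccl17, which had few UMIs in members, is not read here for the same reason as the dendritic markers.

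**Figure D3:**
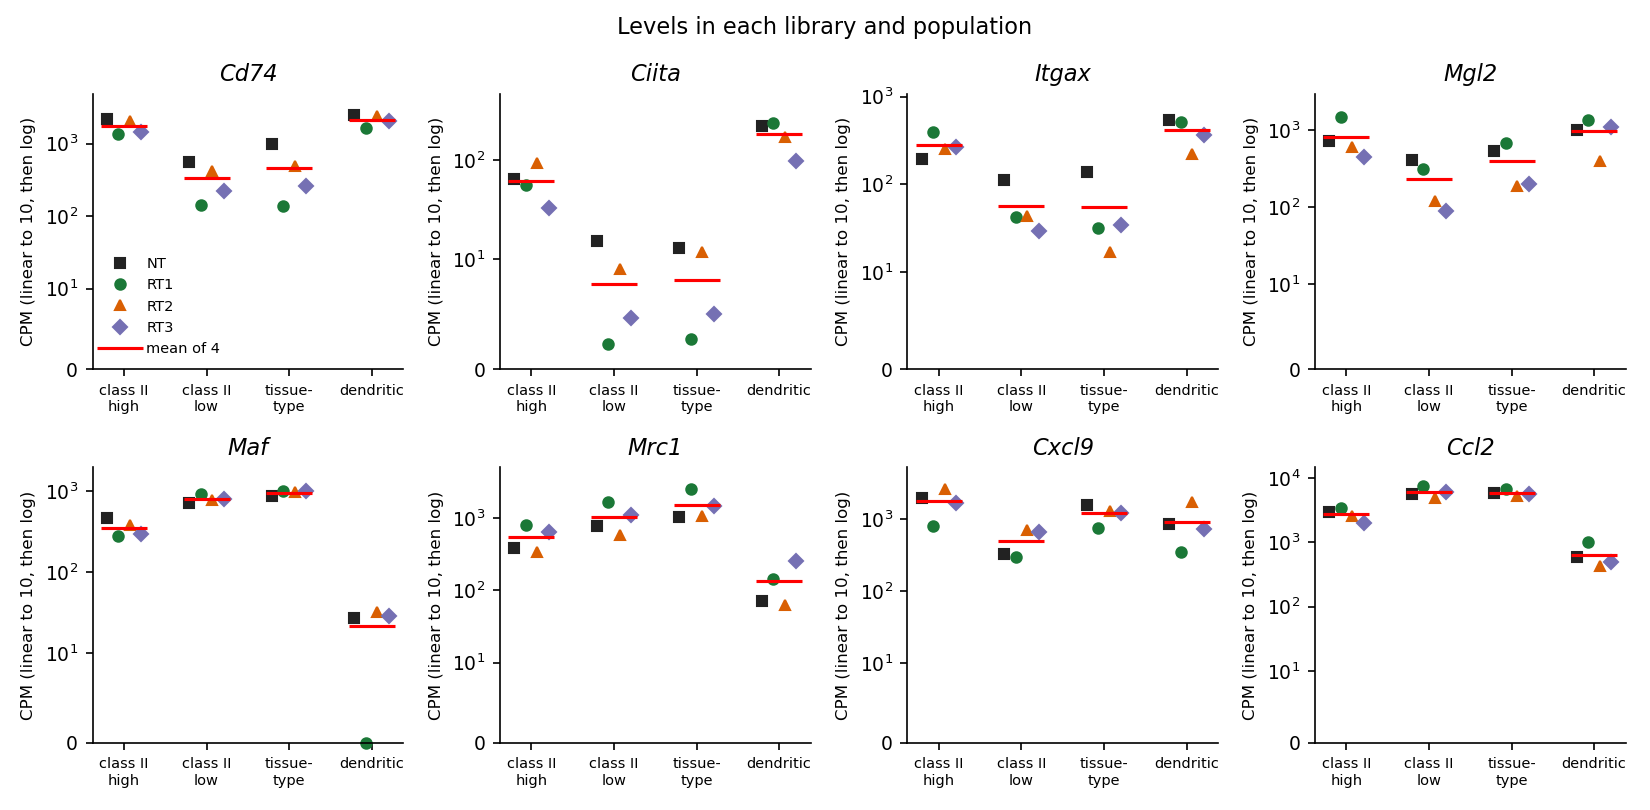
CPM of 8 genes in each library (symbols) and their mean over 4 libraries (red line) in 4 populations, on an axis that is linear to 10 CPM and logarithmic above. Cd74, Itgax and Mgl2 of members are near dendritic barcodes, while Maf, with 276 to 462 CPM in members and 0 to 31.6 CPM in dendritic barcodes, is nearer to the other macrophages.

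**Figure D4:**
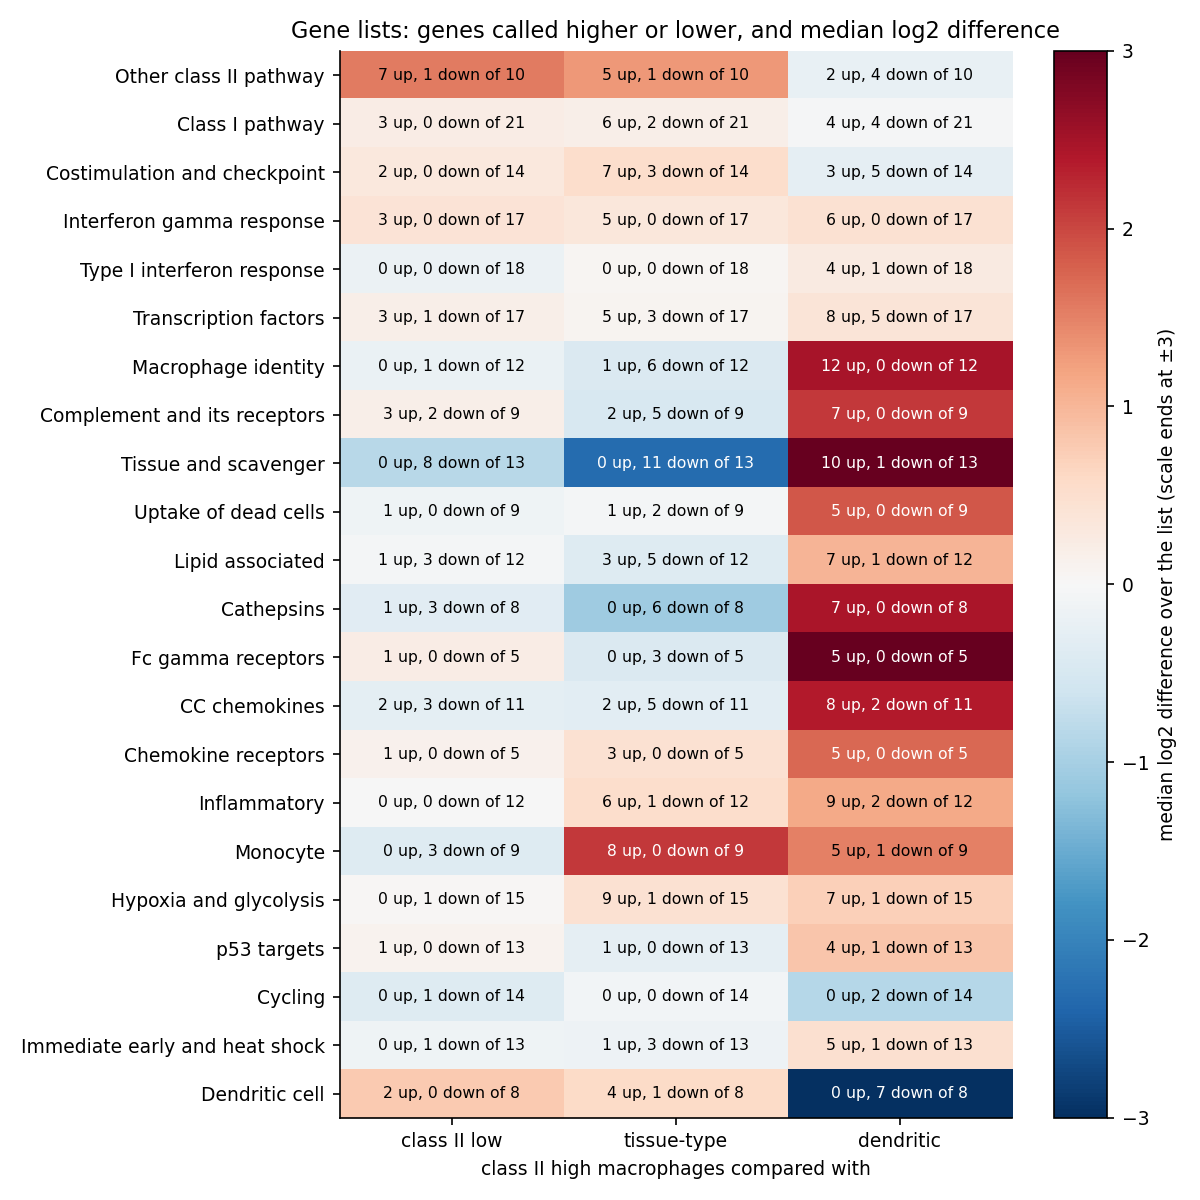
Number of genes called higher or lower in class II high macrophages by edgeR in each gene list (rows) against each of 3 populations (columns), with color giving the median log2 difference over the list. The class II pathway is above 0 against both macrophage populations and at -0.23 against dendritic barcodes, and the tissue and scavenger list is below 0 against macrophages and at 3.06 against dendritic barcodes. The counts of the tissue and scavenger list are set in part by the filter on low counts against class II low macrophages, and in part by the gates against tissue-type macrophages. The bottom right cell is set in part by the filter on low counts. So is the class II pathway against dendritic barcodes, where H2-Ob and H2-Eb2 are nearly silent in members.

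RT and NT were then compared within the members, with no test because NT is 1 library. A gene counted as higher or lower when its log2 ratio was at least 1 in 1 direction against NT in every RT library, with at least 20 CPM in NT or in the RT mean. Of 5619 genes, 189 (3.36%) were higher and 84 (1.49%) lower in RT. The median log2 ratio was 0.06 over all genes, and -0.03 with DESeq2 size factors, with which 159 were higher and 101 lower, so that 61.2% of the genes that met the rule were higher in place of 69.2%. Without RT2 the counts were 371 and 150, without RT3 301 and 139, and without RT1 242 and 156.

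Most genes of the monocyte list were higher in RT. Of 9 measured, 5 were higher (Ly6c2, Chil3, Plac8, Vcan and S100a4), 8 were above NT in every RT library, and the median log2 ratio was 2.26. S100a4, a calcium-binding protein of motile cells, stood at 387 CPM in NT (exact Poisson 95% interval 343 to 435), 1891 in RT1, 1657 in RT2 and 2028 in RT3, corresponding to 2.26 ± 0.15 on the log2 scale (SD, n = 3). Ly6c2 stood at 38.3 CPM in NT (25.4 to 55.3), 237 in RT1, 335 in RT2 and 159 in RT3, corresponding to 2.59 ± 0.53 on the log2 scale (SD, n = 3). Plac8 stood at 35.5 CPM in NT (23.2 to 52.1), 184 in RT1, 620 in RT2 and 215 in RT3, highest in RT2. Every RT value of these genes was outside the NT interval. Chil3 had 2 UMIs in NT and 88 in RT, a ratio of 25.6 with a counting interval of 6.87 to 214. The 10 monocyte genes of the tables together, of which Thbs1 was the most abundant, summed to 3364 CPM in NT, 6959 in RT1, 5580.1 in RT2 and 7077 in RT3 in members. They summed to 3743, 7184, 8387 and 8034 CPM in class II low macrophages and to 1174, 1791, 1943 and 1911 CPM in tissue-type macrophages, which share the same NT library. Of 3 measured neutrophil markers 2 (S100a8 and Csf3r) were also higher in RT by the same rule, S100a8 with no UMI in NT and 46.0 CPM in RT1 against 5.47 in RT2 and 12.2 in RT3, and Csf3r with 11 UMIs in NT and at 46.5 to 56.7 CPM in RT. The part of such cells, or of recently arrived cells, among the members was not tested.

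Genes of cell division went the other way. Of 14 measured, 5 were lower in RT (Mki67, Stmn1, Birc5, Ube2c and Pclaf), 12 were below NT in every RT library, and the median was -1.81. Without RT1 11 of 14 were lower, and without marked and deepest barcodes 3 of 12. Stmn1, a regulator of microtubules in dividing cells, stood at 380.0 CPM in NT (337 to 427), 113 in RT1, 52.0 in RT2 and 85.4 in RT3, corresponding to -2.23 ± 0.57 on the log2 scale (SD, n = 3). Birc5, which encodes survivin, stood at 103 CPM in NT (80.6 to 128), 24.8 in RT1, 16.4 in RT2 and 28.5 in RT3. The proliferation antigen Mki67 stood at 71.1 CPM in NT (53.1 to 93.2), 17.7 in RT1, 4.10 in RT2 and 0 in RT3. All RT libraries lay below NT for these genes. Tk1, thymidine kinase, and Pkmyt1, a kinase that holds back mitosis, were also among the 12 lowest. The 14 genes together summed to 1699 CPM in NT and 366 to 836 in RT in members. They summed to 1849 CPM in NT and 533 to 972 in RT in class II low macrophages, and to 1917 and 513 to 538 in tissue-type macrophages. In dendritic barcodes the sums were 1809 CPM in NT, 1075 in RT1, 1285 in RT2 and 2742 in RT3. All these populations share the same NT library.

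Of 11 measured p53 target genes, 3 were higher in RT, with a median of 0.74. Without RT2 5 were higher, with at least 50 CPM 1 of 8 (median 0.22), and without marked and deepest barcodes 4 (median 0.25). Cdkn1a, the cell cycle inhibitor p21, stood at 349 CPM in NT (307 to 394), 1310 in RT1, 1453 in RT2 and 1447 in RT3, corresponding to 2.01 ± 0.08 on the log2 scale (SD, n = 3). The RT libraries were close together and all far outside the NT interval. Phlda3 (ratio 16.3, counting interval 2.69 to 665) and Trp53inp1 (7.94, 2.53 to 40.1) had 1 and 3 UMIs in NT.

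**Figure D5:**
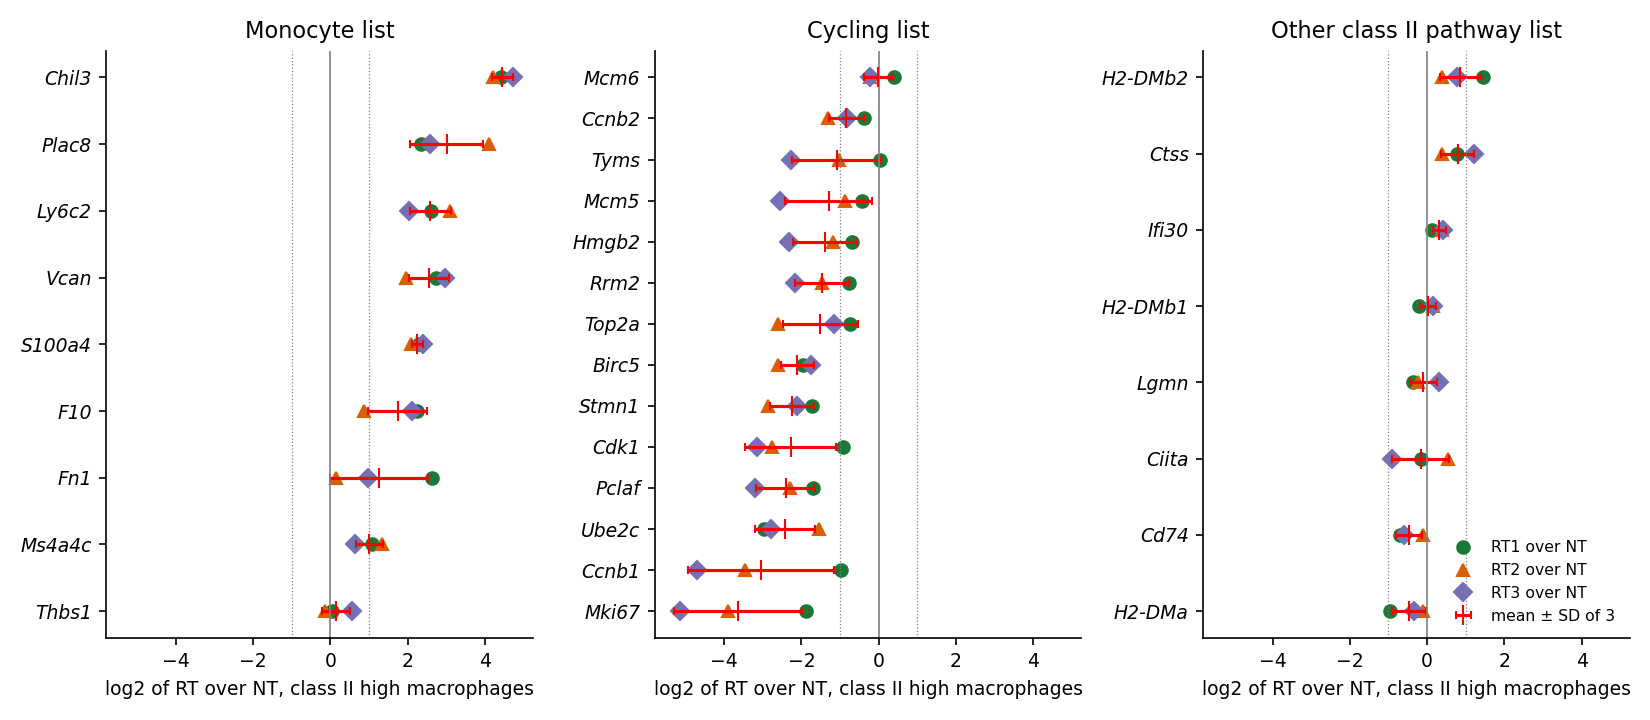
Log2 ratio of each RT library over NT in class II high macrophages (symbols, with the mean and SD of 3 libraries in red) for the measured monocyte, cell division and class II pathway genes, with dotted lines at -1 and 1. Most monocyte genes lie right of 0 and most cell division genes left of 0, with medians of 2.26 and -1.81, while the class II pathway is centred at -0.03.

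Of 8 class II pathway genes measured between RT and NT, none met the rule in either direction, with a median log2 ratio of -0.03. Cd74 differed by -0.47 ± 0.32 (SD, n = 3) and Ciita by -0.17 ± 0.73. This likeness is not independent of the rule, since all members were chosen at a fixed class II level. In tissue-type macrophages, which were chosen without regard to class II, Cd74 was 983 CPM in NT and 294 in the RT mean. Itgax, at 197 CPM in NT and 306 ± 81.8 in RT among members, was 138 CPM in NT and 27.7 in the RT mean in tissue-type macrophages. None of 17 genes of the interferon gamma response met the rule (median 0.30, but -0.05 without RT2), and Cxcl9 lay on both sides of NT. Of 17 type I genes 2 were higher (5 without RT3), Oasl1 (149 CPM in NT, 361 in RT1, 356 in RT2 and 349.6 in RT3) and Ifit3b.

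Further genes of the 24 named by size were higher in RT. Lgals3bp, a secreted ligand of galectins, stood at 84.7 CPM in NT (65.0 to 109), 386 in RT1, 365 in RT2 and 370.0 in RT3, with a log2 ratio of 2.13 ± 0.04 (SD, n = 3) and mean log2 ratios of 2.68, 2.02 and 1.99 in class II low, tissue-type and dendritic barcodes. Pttg1ip (13.7 CPM in NT, 91.7 to 126 in RT), the adaptor Cass4, Ttc7, Glipr2 and Vdr, the vitamin D receptor, were higher in every RT library. Syn1 (synapsin 1) had 3 UMIs in NT and 69 in RT (ratio 13.4, counting interval 4.39 to 66.4). Of the costimulation and checkpoint genes, Icam1 (71.1 CPM in NT, 262 in RT1, 279 in RT2, 215 in RT3), Pdcd1lg2 and Havcr2 were higher, that is 3 of 14 (1 when thinned to 2000 UMIs). Pdcd1lg2 rose by a log2 ratio of 1.35 ± 0.34, from 45.1 to 117 ± 29.2 CPM, and was thus higher both in members over class II low macrophages and in RT over NT.

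Among the lower genes, Ifnb1, interferon beta, stood at 340.0 CPM in NT (299 to 385), 110.0 in RT1, 16.4 in RT2 and 40.7 in RT3, corresponding to -2.98 ± 1.35 on the log2 scale (SD, n = 3). The ratio was -3.11 in class II low and -1.88 in tissue-type macrophages, values that share the NT library. In dendritic barcodes it went the other way, at 17.8 CPM in NT and 76.6 in the RT mean, with few UMIs behind the NT value. Ifna2, an interferon alpha of a family of near-identical genes, stood at 62.9 CPM in NT and 2.74 to 4.06 in RT. Cx3cr1, the fractalkine receptor of patrolling monocytes and some macrophages, stood at 87.5 CPM in NT (67.4 to 112), 10.6 in RT1, 2.74 in RT2 and 0 in RT3. Hspb1, a small heat shock protein, stood at 67.0 CPM in NT and had UMIs in 1 RT library (5.47 CPM in RT2), and Hspa1a stood at 11776 CPM in NT, 3630 in RT1, 5099.8 in RT2 and 2744 in RT3. Hspa1a, a stress gene that cell dissociation can induce, was also lower in RT in the other populations, with 13346 CPM in NT and 5451 in the RT mean in dendritic barcodes. The part of tissue handling in these differences was not tested. Ighm, an immunoglobulin chain of B cells, stood at 65.6 CPM in NT and 4.06 to 17.8 CPM in RT. Of 10 CC chemokines, Ccl4, macrophage inflammatory protein 1 beta, was lower (11374 CPM in NT, 5440 in RT1, 4499 in RT2 and 4703 in RT3), while Ccl6 was above NT in every RT library without meeting the rule (3036 CPM in NT, 7426 in RT1, 5952 in RT2 and 7682 in RT3). No CC chemokine was lower when barcodes were thinned to 2000 UMIs or without marked and deepest barcodes, settings in which 1 and 2 were higher, and without RT2 4 were higher. With DESeq2 size factors, with class II at 2% and without RT1, 2 were lower. None of 10 inflammatory genes met the rule (1 was lower without RT1 or without RT2), with Il1b at 5134 CPM in NT and 2612 ± 788 in RT.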

How the data were processed

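The authors prepared libraries with the SeekOne MM 3′ kit and processed reads with SeekOne Tools. The submitters' processing notes also name Cell Ranger, STAR 2.5.1b, featureCounts and Subread 1.6.4, with GRCm39 (mm39), without saying what each did. They deposited UMI counts as whole numbers without normalization, for barcodes already called as cells. Tables were joined on the 18605 symbols that all 4 share. Members, populations and gene lists were chosen with earlier results of these data known. No doublet caller was run, and an alternative removed barcodes with a marker of another cell and the deepest 5%. UMIs were summed per library and population into 20 sums (5 populations) without the 15 genes of the rule, scaled by TMM, filtered with filterByExpr and tested with edgeR 4.0.16 (R 4.3.3), with library as a block because all 5 populations of a library come from the same tumor. SE is the log2 difference divided by the root of the F statistic. RT over NT used CPM of all UMIs with 0.5 UMI added. Named genes were the 12 most higher and the 12 most lower among called genes of the same sign in 4 libraries with at least 50 CPM in the higher population, and for RT over NT the 12 and 12 with the largest smallest log2 ratio and at least 50 CPM, beside list members. DESeq2 1.42.0 was an alternative. Tests were checked on simulated counts. Reads of near-identical MHC, Gbp, interferon alpha and chemokine genes may have been split between copies. The study's assays other than sequencing were not analysed here. A few genes, 1 of them with a limit in the rule, and the comparison with 1 of the 5 populations are not reported here.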

Additional observations from a re-analysis of the deposited data

How the results depend on the processing

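Where tested, none of the 24 genes named between members and class II low macrophages changed direction, and they stayed on their side of the threshold in 284 of 299 recomputations (some, Gzma and Gzmb among them, had no adjusted p in some alternatives), the exceptions being mostly fits without the block. None of the 24 genes named between RT and NT changed direction, and 23 of 216 values moved by more than the spread of the RT libraries, 14 of them when barcodes were thinned to 2000 UMIs, where 14 of the 24 genes moved. Without the replicate block (library), members had 33 genes higher and 21 lower than class II low, 323 and 313 than tissue-type macrophages, and 583 and 347 than dendritic barcodes. With at least 10 C1q UMIs the counts were 61 and 52 against class II low and 430 and 400 against tissue-type macrophages, the share of macrophages fell by 21.6 points from NT to RT in place of 27.4, and the share of kept barcodes fell by 0.626 points in place of 1.43. Thinned to 2000 UMIs, 89 genes were lower than in class II low, 440 higher and 442 lower than in tissue-type and 270 lower than in dendritic barcodes, and the share fell by 34.0 points. With class II at 2% it fell by 21.2 points. Without a filter on low counts 212 genes were lower than in class II low, without marked and deepest barcodes 97 were higher, and with only the 8 sums compared 499 were higher and 362 lower than in dendritic barcodes. With at least 50 CPM, 91 genes were higher and 42 lower in RT. Leaving out 1 library in turn gave 88 to 206 genes higher and 68 to 151 lower than class II low, 453 to 780 and 408 to 732 than tissue-type macrophages, and 519 to 781 and 321 to 490 than dendritic barcodes. Between RT and NT it gave 242 to 371 higher and 139 to 156 lower genes. Why the counts moved was not tested. The control is 1 library and members' sums held 246014 to 731652 UMIs, so genes of few CPM rest on few molecules.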
